A study of Glycine max with 23 samples.

Results

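The subject is the soybean miRNA families with the highest numbers: every entry of the deposited table named as a soybean miRNA gene from miR4340 upward, apart from 7 families that the rule left out (miR4346, miR4392, miR5225, miR5371, miR5372, miR5761 and miR5786). The rule used names only, and no measured value. It gave 184 of the 3933 table entries. Entries with the same mature sequence were merged, which left 177 of 2839 distinct sequences, in 148 of the 219 named families of the table. A family is the set of sequences with 1 number, and its level is the sum over them. The number was also used to call such families young, but the table holds no measure of age, so that name could not be checked and the families are called here by their numbers.

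Small RNA was sequenced from 23 libraries of soybean (Glycine max cv. Williams 82), grown at an experimental station in Beijing with no treatment. The series title names the evolution of miRNA genes in an ancient polyploid genome as its subject. The seed libraries were developing seeds of about 6, 8 and 10 weeks, and the pod libraries were pods of weeks 1, 2 and 3. The flower libraries were flower bud, bud before flowering, florescence, flower at florescence on another date, and flower 5 days after flowering. The leaf libraries were 3 of new leaves (germination, trefoil stage, flower bud differentiation), 2 of old leaves (trefoil stage, flower bud differentiation) and 1 of senescent leaf. Stem and cotyledon were each sampled at germination and at the trefoil stage, root at germination, and leaf bud at flower bud differentiation. No tissue has a replicate. Libraries of an organ at different stages stood in for replicates, so each SD and p-value weighs organs by how much their stages vary, and not by how much plants of 1 stage vary.

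A plant miRNA is cut by a Dicer-like enzyme from a hairpin RNA and guides an Argonaute protein to messenger RNAs that it matches closely. Most plant miRNAs are 21 nt long and begin with U, read as T here, the base preferred by the Argonaute that carries most of them. Forms of 22 nt are known to start the production of secondary small RNAs from their targets. Small RNAs of 24 nt are the typical product of another Dicer-like enzyme, often begin with A, and belong to the pathway that directs DNA methylation to transposons and repeats. Family numbers follow the order of registration, so a high number says when a sequence was named and not how widely it is shared among species.

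The sequences below are among those that carried most of the members' signal. They are printed as DNA, 5′ to 3′, as the deposited table gives them, with the seed (bases 2 to 8) in capitals.
miR5767: tGGAGGACctttgaaggtgca
miR5770a: tTAGGACTatggtttggacga
miR5770b: tTAGGACTatggtttggacaa
miR4412-5p: tGTTGCGGgtatctttgcctc
miR4415a-3p and miR4415b-3p: tTGATTCTcatcacaacatgg
miR5674a and miR5674b: tAATTGTGttgtacattatca
miR5376: tGAAGATTtgaagaatttggga
miR4416c: cTGGGTGAgagaaacacgtat

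The next set holds the sequences whose levels differed among organs in the tests described further on.
miR5764: tCCATTCGcggacatgatggat
miR4409: tAACAAGTgggtttgttgactg
miR4397-5p: cATCGTTGacgctgactgtacg
miR5679: tTGGTGACccagaagaagttga
miR5034: gGTACCCTttcagatagtctca
miR4998: aGTTTCGTgactacaacttctg
miR4411: tTATTGTAactaatttgtcggt

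The deposited values are a signal scaled to 5000000 tags of a library (TP5M, tags per that number). Libraries held from 3.63 (leaf bud) to 6.74 (germination cotyledon), in units of 1e6 tags, so that 1 read was worth 0.742 to 1.38 TP5M and the 3 reads that a count of 0 allows were worth 2.22 to 4.14 TP5M. All entries of the table together took 2.043% of the tags in root and from 4.606% to 17.493% in the other libraries. Libraries were matched to columns by the number in the sample title. As a description only, log2 values correlated at a mean r of 0.833 within organs and 0.728 between organs under that match, against 0.762 and 0.739 under the other number that the labels carry. The table holds no messenger RNA, so organ labels could not be checked against organ markers. 8 sequences that reached 20 TP5M in a library were found in at least 4 of 6 libraries (old leaf at trefoil, new and old leaf at flower bud differentiation, and the 3 pods) and at 0 in all others, and none of the 8 was a member.

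By their named sequences, most of these families were detected in few libraries or in none. Unnamed entries on the same hairpins, some of them higher than the named sequence, were not counted. With 5 TP5M as the level of detection, 78 of the 148 families (52.7%) reached it in no library, 24 in 1 to 5 libraries, 21 in 6 to 17, 14 in 18 to 22 and 11 (7.4%) in all 23. The median was 0 libraries and the mean 5.48 ± 8.24 (SD over 148 families). 14 families were at 0 in every library. Over the 22 ancient families, which most flowering plants share, 20 (90.9%) reached 5 TP5M in all 23 libraries. Among the 42 other named families with lower numbers, 8 (19.0%) did so and 19 (45.2%) reached the level in no library. The mean level of a family had a median of 0.73 TP5M in the families from miR4340 upward, 1686 TP5M in the ancient ones and 1.77 TP5M in the other named ones. These groups were not tested against each other, since sequences of a family and copies of a gene are not independent.

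**Figure D1:**
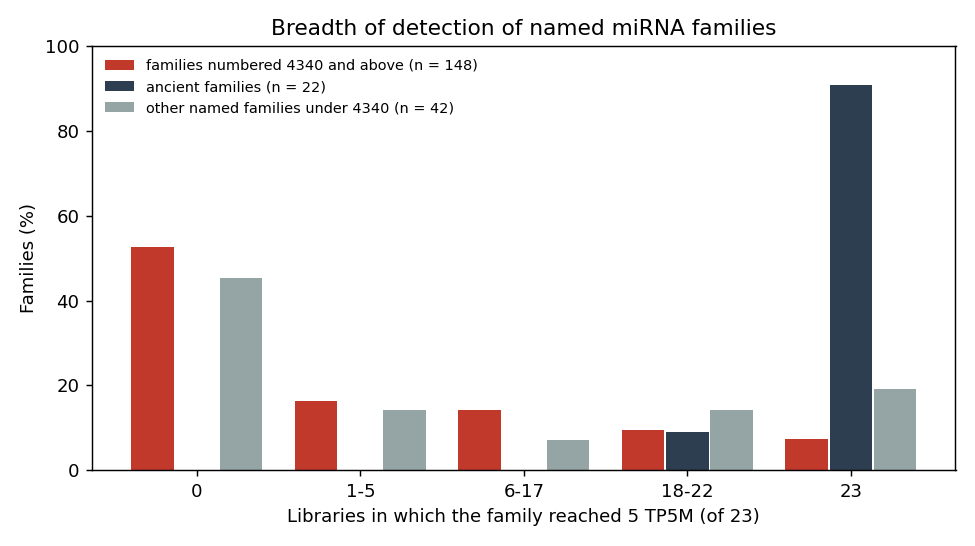
Share of families (y axis, %) by the number of libraries in which the family reached 5 TP5M (x axis, of 23), for the 148 families from miR4340 upward, 22 ancient families and 42 other named families. Bars are highest at 0 libraries for the families from miR4340 upward (52.7%) and at 23 libraries for the ancient families (90.9%).

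The number of families detected depended on the level asked for. At 1 TP5M, which is close to 1 read, 20 families were detected in no library and 24 in all 23. 11 families passed 5 TP5M in exactly 1 library, by small margins: their highest values ran from 5.06 TP5M in pod of week 1 (miR5780 and miR4399) to 10.8 TP5M in old leaf at flower bud differentiation (miR5041). The highest value among the families that never passed was 4.94 TP5M (miR4347). These 4 were named after their values were seen. Per library, the number of families at 5 TP5M or more ran from 18 in root to 46 in pod of week 1. It was 28 to 32 in seeds, 42 to 46 in pods, 40 to 43 in flowers and 25 to 40 in leaves.

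A handful of families held nearly all of the signal. The highest family, miR5767, took 34.2% of the members' signal summed over libraries, the first 3 families 79.8%, the first 5 90.2% and the first 10 95.5%. In descending mean level these were miR5767, miR5770, miR4412, miR4415, miR5674, miR5376, miR4416, miR5374, miR5373 and miR5671. All of them except miR4416 passed 5 TP5M in all 23 libraries, and miR5038 and miR4345 did so too at lower levels. The members together made up 1.64% (florescence) to 8.27% (old cotyledon at trefoil) of the table's signal in a library. The share was 2.38% to 3.03% in seeds, 2.01% to 2.48% in pods, 1.64% to 2.45% in flowers, 1.82% to 5.8% in leaves and 5.14% in root.

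miR5767 was abundant in every organ. Its levels were 3582, 5904 and 8825 TP5M in seeds of weeks 6, 8 and 10, and 4328, 3496 and 2873 TP5M in pods of weeks 1, 2 and 3. In the 5 flower libraries it ran from 2996 to 4439 TP5M (median 3700), in the 6 leaf libraries from 1559 to 6123 TP5M (median 5120), and in root it was 1723 TP5M. The germination cotyledon at 13779 TP5M, the old cotyledon at 13169 TP5M and the germination stem at 13130 TP5M stood above all other libraries, and the senescent leaf at 1559 TP5M was the lowest. In the same order, all entries of the table together took 16.992%, 17.493%, 14.485% and 10.453% of the tags, and 2.043% in root. Old leaf at flower bud differentiation had 15.157% of the tags and 5268 TP5M of miR5767. These levels are per tag of a library and were not scaled to that share. Its hairpin lies on chromosome 16, from 30416422 to 30416532 on the minus strand, in the coordinates of the table, whose genome build is not given in the sources used here. The gene annotation at these positions was not joined for that reason.

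miR4412 was also abundant in every organ and had its highest mean in pod. It had 3298, 3832 and 4105 TP5M in seeds of weeks 6, 8 and 10, and 3115, 5452 and 3929 TP5M in pods of weeks 1, 2 and 3. In flowers it ran from 1659 to 2698 TP5M, in leaves from 2600 to 4278 TP5M, and in root it was 649 TP5M, the lowest library. Root was also the library in which the table as a whole took the fewest tags, 2.043%. Flower values lay below all seed and pod values. miR4412 was the highest member family in pods of weeks 2 and 3 and in the senescent leaf, miR5770 in old leaf at trefoil, old cotyledon and root, and miR5767 in each of the other libraries.

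miR4415 and miR5770 were highest in the old cotyledon by a wide margin. miR4415 had 14151 TP5M there (95% exact binomial interval 13913 to 14393, counting error only) and 1863 TP5M in the germination cotyledon. In leaves it had 4755 TP5M in old leaf at trefoil and 92.2 to 707 TP5M in the other 5 libraries, and in flowers 47.5 to 176 TP5M. Seeds held 65.2 to 205 TP5M and pods 122 to 426 TP5M. miR5770 reached 39346 TP5M in the old cotyledon (interval 38949 to 39746) and 16909 TP5M in old leaf at trefoil, and had 312, 165 and 67.0 TP5M in seeds of weeks 6, 8 and 10. The seed of week 10 was the lowest library, followed by the leaf bud at 127 TP5M. Both families thus had their highest values in the same pair of libraries, the old leaf and old cotyledon of the trefoil stage.

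miR5674 was the most abundant of the families whose highest organ was seed. Its levels were 890, 1565 and 1936 TP5M in seeds of weeks 6, 8 and 10, and 1979 TP5M in the germination cotyledon. The pods had 167.1, 396.4 and 249.9 TP5M in weeks 1, 2 and 3, the flowers 136 to 228 TP5M and the leaves 192 to 618 TP5M. No pod, flower or leaf library reached the lowest seed. The same sequence stands in hairpins on chromosome 9 from 37395782 to 37395989 (minus strand) and from 37506191 to 37506395 (plus strand), and its reads cannot be assigned to either copy.

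**Figure D2:**
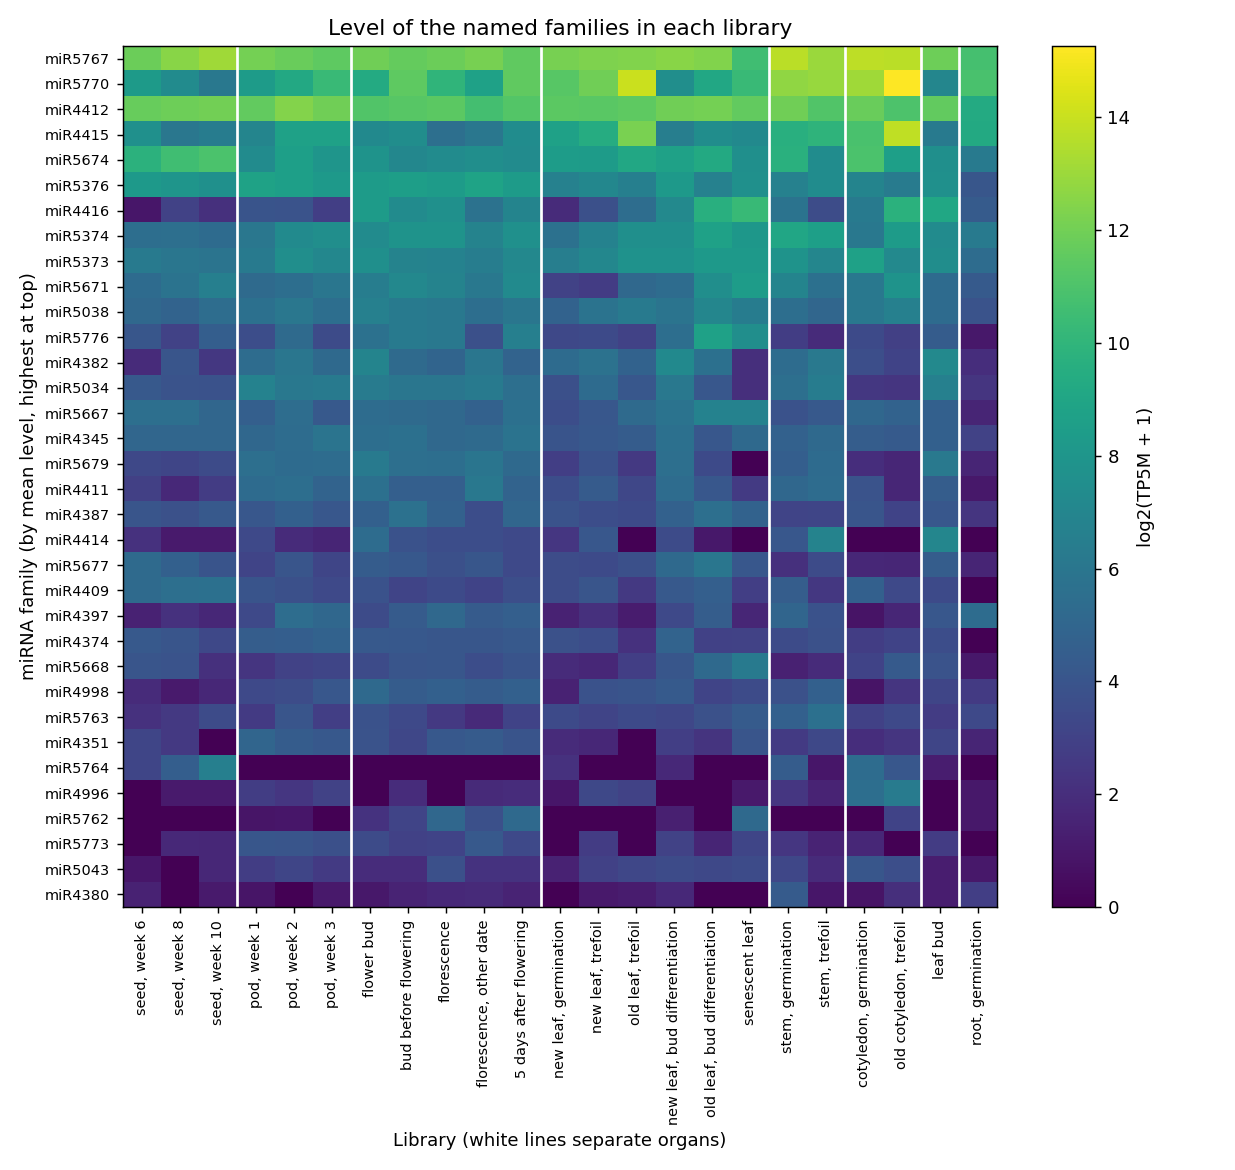
Level of the named families (rows, highest mean at the top) in the 23 libraries (columns, white lines between organs), as log2(TP5M + 1) on the colour scale. The rows at the top are bright in every column, and miR5764 and miR5762 are examples of families near 0 in whole organs.

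The 2 copies of miR5770 differed in where they were found. miR5770a and miR5770b are both 21 nt, begin with the same seed and differ by G20A, counted from the 5′ end with the base of miR5770a first. The hairpin of miR5770a lies on chromosome 18 from 50625466 to 50625712 and that of miR5770b on chromosome 7 from 16726883 to 16727143, both on the minus strand. In the 15 libraries of later stages miR5770b ran from 1.24 to 178 TP5M (median 6.09), against 260.4 to 2546 TP5M (median 1929) in the 8 germination and trefoil libraries. These ranges did not overlap. For miR5770a the later libraries ran from 44.6 to 2917 TP5M (median 562), against 1315 to 36801 TP5M (median 5162) in the germination and trefoil libraries, and these ranges did overlap.

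The ratio of miR5770a to miR5770b ran from 0.753 (seed of week 6) to 639 with a median of 129.5 in the later libraries, and from 1.94 to 14.5 with a median of 3.83 in the germination and trefoil libraries. In seeds miR5770b had 178, 53.4 and 22.3 TP5M in weeks 6, 8 and 10, where miR5770a had 134, 111 and 44.7 TP5M. Each copy has an entry that starts and ends 1 base further along the hairpin, M6996-5p for miR5770a and M2706-5p for miR5770b. M2706-5p ran from 0 to 52.2 TP5M in the later libraries and from 115 to 1651 TP5M in the germination and trefoil libraries. The split by stage follows the labels but was chosen after the values were seen, so it was not tested. The copies differ at 1 base, and how reads with a mismatch were assigned is not given in the sources used here.

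**Figure D3:**
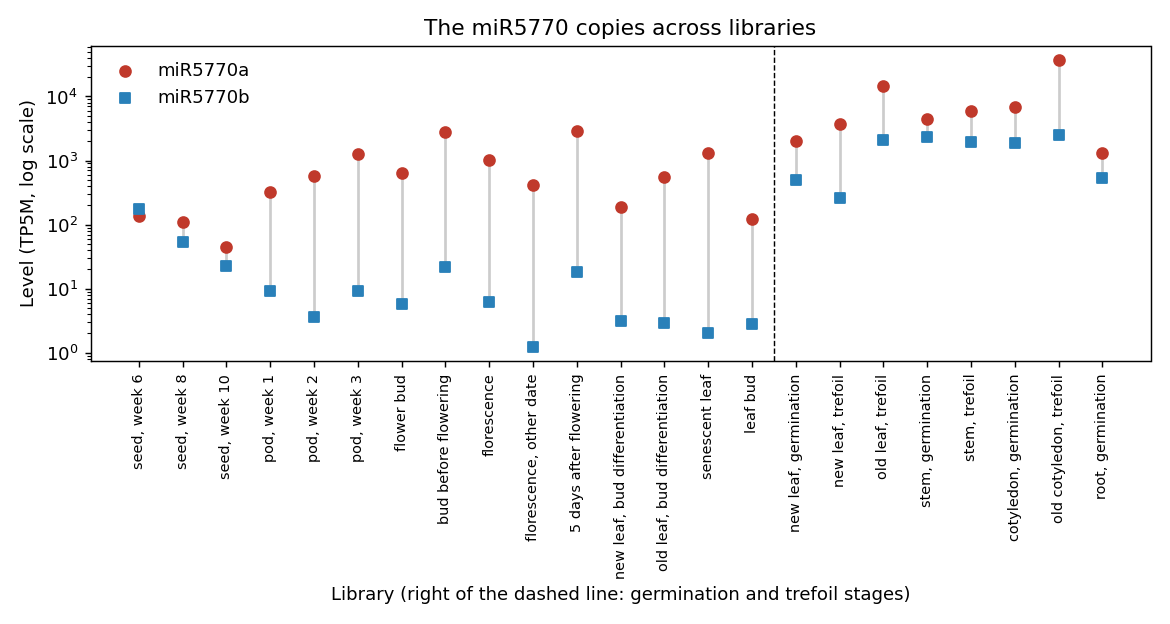
Level of miR5770a (circles) and miR5770b (squares) in each library (TP5M, log scale), with later stages left of the dashed line and germination and trefoil stages right of it. On the right both copies are high, and on the left miR5770b is at or under 178 TP5M while miR5770a reaches 2917 TP5M.

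Among the 70 families that reached 5 TP5M, the organ with the highest mean was pod for 18, cotyledon for 15, leaf bud for 11, seed for 9, flower for 9, leaf for 4, stem for 3 and root for 1. The lead was mostly small: the highest organ stood over the second by a median of 1.39-fold, by at least 2-fold in 18 families and by at least 4-fold in 5. Leaf bud and root are single libraries. Over the 22 ancient families cotyledon was highest for 10, flower for 5, pod for 3 and leaf bud for 0. Over the 23 other named families that reached 5 TP5M, stem and cotyledon were highest for 5 each and leaf bud for 4. Seed, pod and flower were highest for 3 of those 23 each. With a detection level of 1 TP5M the count for flower was 17, and with 3 reads of each library it was 14.

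Several families of middle level stood out in 1 or a few libraries. miR5559 had 1017 TP5M in the old cotyledon (interval 954 to 1083), 157 TP5M in old leaf at trefoil, 114 TP5M in the trefoil stem and 113 TP5M in the senescent leaf, and was at 0 in all 3 seeds. It was named after its values were seen. miR5776 had 419.8 TP5M in old leaf at flower bud differentiation (interval 381 to 461) and 186 TP5M in the senescent leaf, against 7.21 to 44.9 TP5M in the other 4 leaf libraries. miR4996 had 80.1 TP5M in the old cotyledon (interval 63.1 to 100.3) and 44.5 TP5M in the germination cotyledon, and at most 8.83 TP5M elsewhere.

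miR4416 had 541 TP5M in the leaf bud (interval 488 to 597), 873 TP5M in the old cotyledon and 1233 TP5M in the senescent leaf. Seeds held 0.90, 7.12 and 3.35 TP5M of it in weeks 6, 8 and 10, and pods 14.3, 14.2 and 6.15 TP5M in weeks 1, 2 and 3. Other families also had their highest organ mean in the leaf bud, a single library set against means over stages. miR4382 was at 143 TP5M there (interval 117 to 174). Its single highest library was new leaf at flower bud differentiation, at 149 TP5M. miR4414 was at 127 TP5M in the leaf bud, 112 TP5M in the trefoil stem and 0 in both cotyledons and the root. The root library led only for miR4397, with 40.6 TP5M (interval 29.0 to 55.3), against 43.4 TP5M in the pod of week 2, which was the single highest library.

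miR5671, miR5668, miR5667 and miR5677 had their highest leaf values in the senescent leaf or in old leaf at flower bud differentiation. miR5671 had 341 TP5M in the senescent leaf and 183 TP5M in old leaf at flower bud differentiation, against 5.52 to 41.8 TP5M in the other 4 leaf libraries. miR5668 had 78.2 TP5M in the senescent leaf and 36.3 TP5M in old leaf at flower bud differentiation, with 2.21 to 16.3 TP5M in the others. miR5667 had 106 and 109.8 TP5M in the same pair of libraries, with 11.3 to 55.8 TP5M in the others. miR5677 had 61.8 TP5M in old leaf at flower bud differentiation (interval 47.5 to 79.1), and 9.93 to 36.4 TP5M in the other leaves. The age of leaves was not tested, since only the trefoil stage and flower bud differentiation hold both new and old leaf, with 1 library each. Stem led for miR5763, with 24.5 and 48.2 TP5M at germination and trefoil, and for miR4380, with 20.3 TP5M at germination and 0.91 TP5M at trefoil. miR4374 was led by pod at 21.9, 22.2 and 26.6 TP5M in weeks 1, 2 and 3, and miR4387 by flower at 11.1 to 51.2 TP5M. Those ranges overlapped the leaf values, which reached 27.9 TP5M for miR4374 and 46.1 TP5M for miR4387.

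Where both arms of a hairpin carry a member, the arms were unequal in these families. miR4412-5p averaged 3010 TP5M over the 23 libraries and miR4412-3p 43.6 TP5M. The 3p sequence shared by miR4415a and miR4415b averaged 1090 TP5M, and miR4415a-5p 71.8 TP5M. miR4397-5p averaged 11.9 TP5M and miR4397-3p 3.20 TP5M. A further entry on that hairpin, M1694-3p, averaged 73.9 TP5M and was above both in all 23 libraries, so neither named sequence was its highest. The levels of both arms of miR4412 did not move in parallel: miR4412-3p was at 26.1, 10.7 and 10.1 TP5M in seeds and at 35.9 to 125 TP5M in flowers, while miR4412-5p was higher in every seed than in any flower.

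For some members the named sequence was a minor form of its hairpin. 42 member sequences had an entry of another sequence on an overlapping hairpin, and 27 had an offset form, an entry that shares at least 16 bases with exact overlap. In 11 of the 27 the offset form had the higher mean, and in 5 it was at least 10-fold higher. The 4 of these 5 in which the offset form averaged 5 TP5M or more are printed with the unshared bases in capitals, the named sequence first. These were named after their values were seen.
miR4996: tagaagctccccatgttctc
M5467-3p: tagaagctccccatgttctcA
miR4413a: aagagaattgtaagtcactg
M7052-5p and M7248-5p: Taagagaattgtaagtcactg
miR4416a: acgggtcgctctcacctagg
M7413-3p: Tacgggtcgctctcacctagg
miR5041: TTTcatcttcaacttgctcaa
M5974-5p: catcttcaacttgctcaaCGG

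miR4996 averaged 7.72 TP5M and its form with 1 more base at the 3′ end, M5467-3p, averaged 2618 TP5M. M5467-3p had 19236 TP5M in the old cotyledon and 17848 TP5M in the germination cotyledon, the same libraries in which miR4996 was highest. miR4413a averaged 4.8 TP5M and its form with 1 more base at the 5′ end averaged 715 TP5M. miR4416a averaged 0.54 TP5M and M7413-3p, also 1 base longer at the 5′ end, averaged 334 TP5M. miR5041 averaged 2.26 TP5M and M5974-5p, shifted by 3 bases, averaged 24.5 TP5M. The offset form was the higher one in all 23 libraries for each of these 4 members. In these 4 hairpins the named sequence was thus the minor form of the pair, and a base more at the 5′ end also moves the seed.

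Members of different length differed in how many were detected. Of the 177 sequences, 70 (39.5%) had 24 nt, 49 had 22 nt, 43 had 21 nt, 8 had 20 nt, 4 had 23 nt, 2 had 19 nt and 1 had 18 nt. Among those of 24 nt, 6 of 70 (8.6%) reached 5 TP5M in at least 1 library. Of the 22 nt sequences 32 of 49 (65.3%) did so, and of the 21 nt sequences 33 of 43 (76.7%). The first base was A in 34 (48.6%) and T in 24 of the 24 nt sequences, and T in 24 (55.8%) of the 21 nt sequences. In ancient families 24 nt made up 2.3% of the sequences and 21 nt 61.2%. The other named families were closer to the members, with 20.7% of 24 nt and 31.0% of 21 nt. Of their 24 nt sequences 3 of 18 (16.7%) reached 5 TP5M, and 61.1% began with A. No test was run on these shares, since members of a family share sequence.

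The summed level of the 70 sequences of 24 nt was low everywhere and differed by organ. It was 96.3, 71.2 and 40.2 TP5M in seeds of weeks 6, 8 and 10, 54.1 to 71.7 TP5M in pods, 34.0 to 82.9 TP5M in flowers and 8.24 to 32.5 TP5M in leaves. Seeds, pods and flowers all lay above the highest leaf. The stems had 19.5 and 38.2 TP5M, the cotyledons 5.25 and 9.63 TP5M, the leaf bud 55.2 TP5M and the root 10.1 TP5M. The sum rests on few reads, from 10 in the root to 252 over the 5 flower libraries. miR5785, named after its values were seen, held part of it, with 23.4, 20.2 and 7.81 TP5M in seeds of weeks 6, 8 and 10. Without miR5785 the flowers had 29.4 to 64.4 TP5M and the leaves 5.15 to 22.4 TP5M.

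The other 503 sequences of 24 nt in the table summed to 537 to 985 TP5M in seeds, 437 to 558 TP5M in pods, 384 to 551 TP5M in flowers and 84.5 to 508 TP5M in leaves, so there the leaves overlapped pods and flowers but lay below all seeds. The members of 21 nt followed another order, being led by the abundant families. They summed to 30793 and 71938 TP5M in the cotyledons, 8639 to 15377 TP5M in seeds, 8416 to 11010.2 TP5M in pods, 7266 to 9836 TP5M in flowers and 9120 to 31203 TP5M in leaves. Those of 22 nt summed to 443 to 486 TP5M in seeds, 716 to 917 TP5M in pods, 719 to 926 TP5M in flowers and 243 to 824 TP5M in leaves. Seeds thus lay below all pods and flowers in the 22 nt class. These sums over chosen members carry no test.

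**Figure D4:**
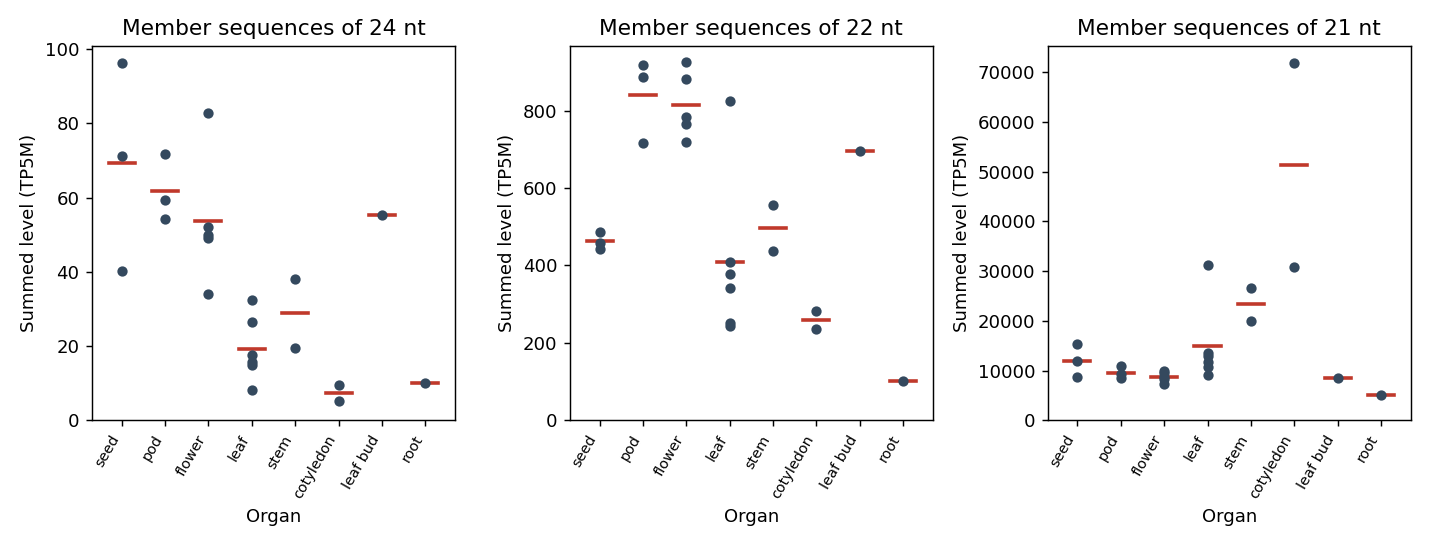
Summed level (TP5M, linear axes from 0) of the member sequences of 24, 22 and 21 nt in each library (points), by organ, with the organ mean as a line. Leaves lie below seeds, pods and flowers for 24 nt, and cotyledons are highest for 21 nt.

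The 24 nt members also shared stretches of sequence across family names. A run of at least 12 nt, on either strand, was shared with a member of another family by 24 of the 177 sequences (13.6%), by 19 of the 70 of 24 nt (27.1%), by 3 of the 49 of 22 nt and by 1 of the 43 of 21 nt. The same measure over all lengths was 5.4% within ancient families and 4.6% within other named families. Among their 24 nt sequences it was 0 of 3 and 2 of 18 (11.1%). A larger group offers more sequences to match, and the 177 members were set against 129 and 87 sequences with no correction for this. Examples of long shared runs on the same strand are shown in capitals.
miR4373: aAGTTGACGTACGTACGGATTGAC
miR4360: cAGTTGACGTACGTACGGATTGAC
miR4343a: aaaaaaCTTACGGATCAAGTTGAT
miR4347: aagcttCTTACGGATCAAGTTGAT
miR4378a: atAGGACTGTCTTAGAAtggtgta
miR4356: cAGGACTGTCTTAGAAagccaggc

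miR4373 and miR4360 thus share 23 of 24 bases under separate family numbers, miR4343a and miR4347 share 18, and miR4378a and miR4356 15. None of these 6 sequences reached 5 TP5M in any library. A further pair of 18 bases, miR4401a and miR4374b, matched on opposite strands. In each printed pair the family names differ while most of the letters are the same.

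Among the members 8 seeds were held by more than 1 sequence and 6 by more than 1 family. The seed TAGGACT stood in miR5770a, miR5770b and the 24 nt miR4378a. The seed AAGACGG stood in miR4345 and miR4374a, both of 22 nt. 3 seeds were shared with named families of lower number: that of miR4351 with miR393b, that of miR4361 with miR1526 and that of miR4371c with miR1520i. A shared seed is a match of letters and says nothing of targets, which in plants depend on the whole sequence.

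The 175 hairpins with coordinates lay on all 20 chromosomes, and 4 entries had none. Hairpins were 55 to 262 bases long with a median of 128. 9 pairs of member hairpins lay within 20000 bases of each other. 3 of these pairs were formed by miR5037d, miR5037a and miR5037c on chromosome 8 between 46832310 and 46848354, all on the plus strand. miR5038a and miR5038b lay on chromosome 9 between 28264376 and 28272562, also on the plus strand. The closest pair, miR5040 and miR4348 on chromosome 12, was 98 bases apart. miR5037, named for its position, reached 42.6 TP5M in florescence and was at 0 in the seed of week 10, old leaf at trefoil and the senescent leaf.

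Differences between organs were tested in limma, on log2(TP5M + 5), for each of the 595 sequences of the table with a mean of at least 5 TP5M, of which 45 were members. The other 132 members were too low for the test. Differences are given on that log2 scale, which understates changes of low sequences, and p-values are adjusted over all 595 by the Benjamini-Hochberg method. The 4 organs with at least 3 libraries (seed, pod, flower and leaf) differed for 15 of the 45 members (33.3%), where the share over all sequences tested was 39.5%. Those described here were miR5764, miR4998, miR5679, miR5034, miR4351, miR4411, miR5674, miR5773, miR4397-5p, miR4409, miR5770a, miR5376, miR4416c and miR5762. In bulk organs a lower level can stand for fewer cells that hold a miRNA or for less of it per cell, which cannot be told apart.

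The calls of miR4397-5p, miR4409, miR4998, miR5674 and miR5764 in this test of 4 organs were kept under every alternative run, including an edgeR test on recovered reads and each library left out in turn. 4 of the 15 were lost when 1 library was left out. The call of miR4416c was lost when the flower bud, florescence, or any seed or pod library was left out (adjusted p up to 0.0686). That of miR5762 was lost without any of the same seeds and pods or without florescence on either date or the flower 5 days after flowering (up to 0.111). That of miR5376 was lost without bud before flowering, old leaf of either stage or new leaf at germination (up to 0.0625). That of miR5770a was lost without the seed of week 8 or week 10 (up to 0.105). TMM scaling, an alternative that scales libraries to each other by their shared sequences, ended the calls of miR4351, miR4411, miR5034, miR5376, miR5762, miR5770a and miR5773. edgeR ended those of miR4351, miR5376, miR5762 and miR5773. With TMM factors, edgeR ended the calls it had ended without them and also those of miR4411, miR5034 and miR5679.

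Seed against leaf compares developing seeds with leaves over the plant's life. It called 9 of the 45 members, 3 higher and 6 lower in seed, where the shares over all sequences were 16.3% in all, 6.72% higher and 9.58% lower. The median log2 difference was -0.34 over the 45 members and -0.38 over all 595. With TMM scaling the split of members called was 4 higher and 4 lower, and with edgeR 3 higher and 11 lower. The median over all 595 was -0.2 with TMM scaling and -1.15 with edgeR. Calls over all sequences were not counted under these settings, so the splits cannot be read as particular to the members. TMM scaling ended the calls of miR4998, miR5374 and miR5373, and the term for the 6 libraries with extra sequences ended these and that of miR5043.

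miR5764 was the member with the smallest adjusted p for seed against leaf. It had 8.10, 22.5 and 93.8 TP5M in seeds of weeks 6, 8 and 10, against 0 in 4 leaf libraries, 3.49 TP5M in new leaf at germination and 2.32 TP5M in new leaf at flower bud differentiation. Every seed was above every leaf (log2 difference 2.50, SE 0.50, limma adjusted p = 0.00207), and the call was kept under every alternative run. The sequence was also at 40.8 TP5M in the germination cotyledon, 21.1 TP5M in the germination stem and 16.9 TP5M in the old cotyledon, and at 0 in all pods and flowers.

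miR4409 had 37.8, 46.3 and 48.0 TP5M in seeds of weeks 6, 8 and 10, against 4.81 to 23.5 TP5M (median 13.0) in the 6 leaf libraries. The seed values lay above all leaves (log2 difference 1.53, SE 0.39, limma adjusted p = 0.00963), and the call was kept under every alternative run, with an adjusted p of up to 0.0492. miR5674, described above, was also higher in seed at 1460 ± 530 TP5M (SD, n = 3) against 192.5 to 618 TP5M in the 6 leaf libraries (median 388), with a log2 difference of 1.83 (limma adjusted p = 0.0458). That call was lost without any 1 of 12 of the 17 libraries, namely every flower and seed library, the pod of week 3, new leaf at trefoil or at germination, or the senescent leaf (adjusted p up to 0.162).

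miR5770a fell to 134, 111 and 44.7 TP5M in seeds, against 185 to 14778 TP5M (median 1652) in leaves. The groups did not overlap (log2 difference -4.09, SE 1.03, limma adjusted p = 0.00963), and the call was lost without the seed of week 10 (adjusted p = 0.0593). The other calls described here, miR5043, miR4998, miR5374 and miR5373, had log2 differences of -1.03 to -1.84. Seeds had 0 to 2.23 TP5M of miR5043, 1.19 to 2.70 of miR4998, 39.1 to 47.4 of miR5374 and 58.0 to 73.8 of miR5373, against 1.74 to 10.3, 1.74 to 19.4, 50.6 to 427 and 90.7 to 308 TP5M in leaves. Only for miR5374 and miR5373 did the groups not overlap.

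Those 4 calls were near the threshold, with adjusted p from 0.0397 to 0.0484. The miR5043 call ended without any 1 of 9 libraries (the seeds, pod of week 3, flower 5 days after flowering, old leaf of either stage, new leaf at flower bud differentiation or senescent leaf, adjusted p up to 0.165). That of miR4998 ended without any 1 of 11 (the seeds, pods of weeks 2 and 3, bud before flowering, florescence, flower 5 days after flowering, both trefoil leaves or new leaf at flower bud differentiation, up to 0.160). That of miR5374 ended without any 1 of 14 and that of miR5373 without any 1 of 13, in each case any seed or flower library, the pod of week 3, old leaf of either stage, new leaf at flower bud differentiation or the senescent leaf, and for miR5374 also the pod of week 2 (up to 0.132 and 0.151).

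Seed against pod compares developing seeds with the young pods before them. It called 10 of the 45 members, 3 higher and 7 lower in seed, where the shares over all sequences were 16.3% in all, 4.03% higher and 12.3% lower. The median log2 difference was -0.50 over the 45 members and -0.64 over all 595, so most of the table was lower in seed on this scale. With TMM scaling, under which that median was -0.155, the split of members called was 5 higher and 2 lower. Calls over all sequences were not counted under this or the other alternatives. All 3 pods were among the 6 libraries with extra sequences, and with a term for those libraries 0 members were called. With edgeR and TMM factors, 0 of the 7 lower calls remained and all 3 higher ones did, while edgeR without them ended the calls of miR4409, miR4351, miR5679 and miR5773.

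The 3 members higher in seed than in pod were miR5764, miR5674 and miR4409. miR5764 was at 0 in all 3 pods, where 3 reads were worth at most 3.07 TP5M. The seed mean of 41.5 ± 45.9 TP5M (SD, n = 3) was 13.5-fold above that limit. This bound holds for the mean only, since the seeds ran from 8.10 TP5M in week 6 to 93.8 TP5M in week 10. The limma adjusted p was 0.00334, and the call was kept without any single library. miR5674 had a log2 difference of 2.42 (SE 0.69, limma adjusted p = 0.0202), with no overlap between the 890 to 1936 TP5M in seeds and the 167.1 to 396.4 TP5M in pods. miR4409 averaged 44.0 ± 5.47 TP5M in seeds against 12.0 ± 2.59 TP5M in pods (SD, n = 3 each, log2 difference 1.53, limma adjusted p = 0.0228). Both calls were lost without the pod of week 3 or the seed of week 8 or 10, and that of miR5674 also without the pod of week 1 and that of miR4409 also without the pod of week 2 (adjusted p up to 0.0844 and 0.0784).

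The 7 members lower in seed were miR4411, miR5773, miR4351, miR5034, miR4397-5p, miR4998 and miR5679, all of 22 nt. Of the 45 members tested 17 had 22 nt, and miR5764 and miR4409, which were higher in seed, had 22 nt as well. miR4411 had 6.30, 2.37 and 5.58 TP5M in seeds of weeks 6, 8 and 10, against 38.8, 44.3 and 27.7 TP5M in pods of weeks 1, 2 and 3 (log2 difference -2.11, SE 0.53, limma adjusted p = 0.00878). miR5773 had 0, 2.37 and 2.23 TP5M in seeds against 16.0, 15.1 and 12.3 TP5M in pods (log2 difference -1.59, SE 0.41, limma adjusted p = 0.00987). Neither pair of groups overlapped, and both calls were kept without any single library.

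miR5034 had 18.0, 14.2 and 13.4 TP5M in seeds of weeks 6, 8 and 10, against 109.7, 67.4 and 72.7 TP5M in pods of weeks 1, 2 and 3. The groups were well apart (log2 difference -2.10, SE 0.58, limma adjusted p = 0.0172), although the call was lost without the pod of week 1 or the seed of week 8 or 10 (adjusted p up to 0.0692). miR4351 fell to 4.28 ± 4.07 TP5M in seeds against 22.7 ± 6.79 TP5M in pods (SD, n = 3 each, limma adjusted p = 0.0153), and its call was lost without the pod of week 1 or the seed of week 10 (up to 0.0976). miR4397-5p had 0.90, 0 and 2.23 TP5M in seeds against 5.91, 36.4 and 22.5 TP5M in pods (limma adjusted p = 0.0202), and was lost without the pod of week 2 or 3 or the seed of week 6 or 8 (up to 0.118).

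miR4998 and miR5679 were the weakest of the calls for seed against pod. miR4998 had 1.19 to 2.70 TP5M in seeds against 9.28 to 16.4 TP5M in pods, and miR5679 8.30 to 10.1 TP5M in seeds against 39.0 to 47.3 TP5M in pods. The groups did not overlap, with limma adjusted p of 0.0414 and 0.0417. Both calls were lost without any 1 of the seed and pod libraries, bud before flowering or florescence, and that of miR4998 also without the flower 5 days after flowering (adjusted p up to 0.136 for miR4998 and 0.115 for miR5679).

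**Figure D5:**
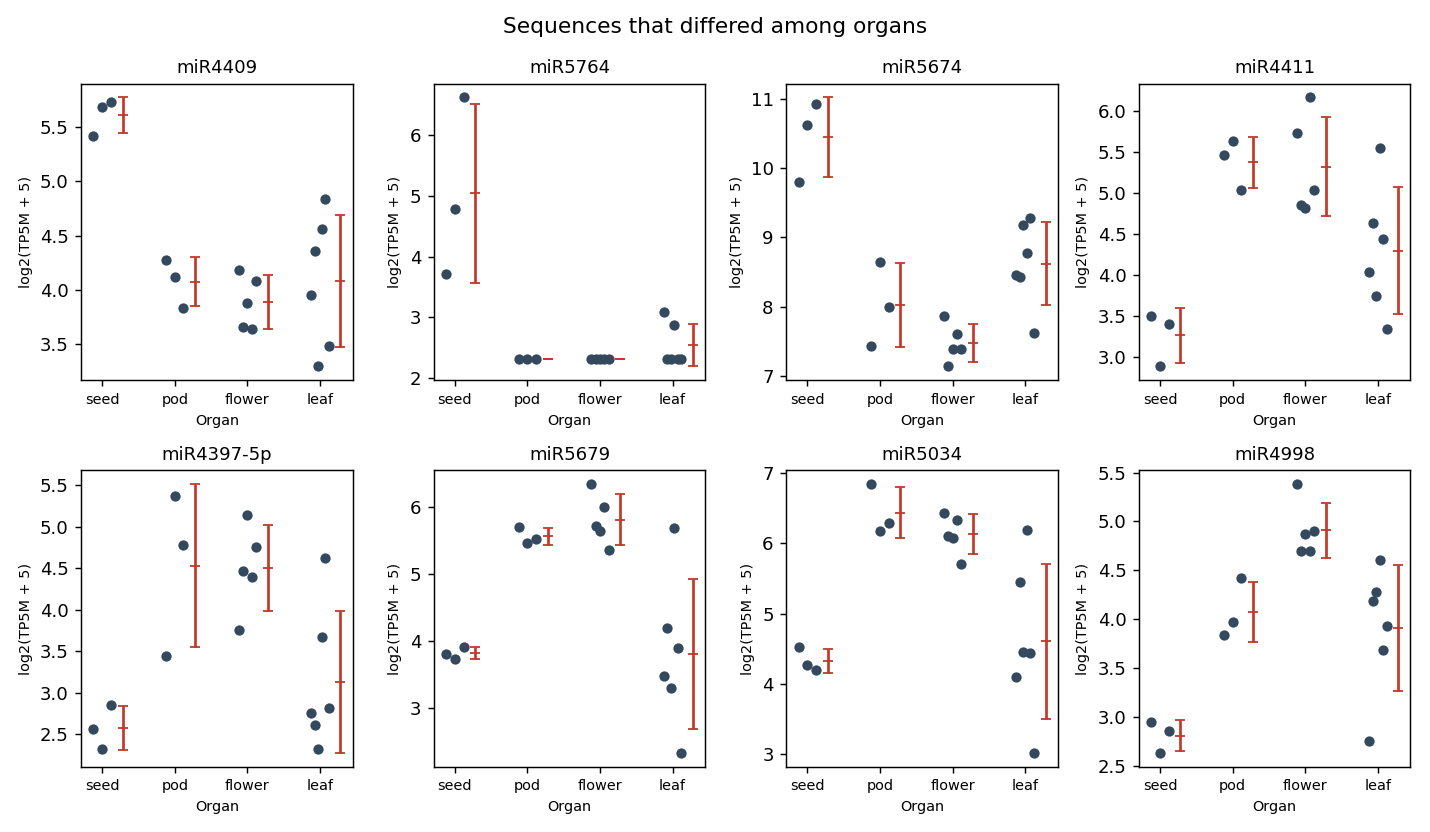
Level of 8 member sequences in the seed, pod, flower and leaf libraries as log2(TP5M + 5), one point per library with the mean and SD beside them. miR4409, miR5764 and miR5674 are highest in seed, miR4411 is lower in seed than in pod, and miR4397-5p, miR5679, miR5034 and miR4998 are higher in flower than in most leaves.

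Flower against leaf called 7 of the 45 members, all higher in flower, where the shares over all sequences were 24.9% in all, 21.2% higher and 3.7% lower. The median log2 difference was 0.20 over the 45 members and 0.44 over all 595. TMM scaling brought that median to 0, and the members called became 1 higher and 3 lower. edgeR on recovered reads called 1 higher and 2 lower, and with TMM factors 0 higher and 6 lower. The median over all 595 was 0.18 with edgeR and -0.39 with TMM factors added. Calls over all sequences were not counted under these scalings, so the splits cannot be read as particular to the members. None of the 7 turned its direction under these scalings, but only miR5679 kept its call with TMM scaling in limma and only miR5376 with edgeR.

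miR5679 was the clearest of the 7. It had 76.4, 47.4, 45.1, 59.3 and 35.9 TP5M in the flower bud, bud before flowering, florescence, florescence on the other date and flower 5 days after flowering, against 0 to 46.5 TP5M (median 7.96) in leaves. The groups overlapped through new leaf at flower bud differentiation alone (log2 difference 2.00, SE 0.42, limma adjusted p = 0.00245). miR5376 had 338, 376, 333, 454 and 332 TP5M in the same flower libraries, against 94.9 to 296 TP5M (median 119) in leaves, with no overlap (log2 difference 1.33, SE 0.38, limma adjusted p = 0.0169). Both calls were kept without any single library.

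miR5034 averaged 65.8 ± 13.3 TP5M in flowers (SD, n = 5) against 25.9 ± 23.8 TP5M in leaves (SD, n = 6), with a log2 difference of 1.52 (limma adjusted p = 0.0165). The groups overlapped, and the call was kept without any single library. miR4998 had 36.8, 20.9, 24.4, 21.0 and 24.8 TP5M in the flower libraries in the order above, against 1.74 to 19.4 TP5M (median 11.8) in leaves. These groups did not overlap (log2 difference 1.00, SE 0.30, limma adjusted p = 0.0212), and the call was lost without the flower bud (adjusted p = 0.0602).

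miR4397-5p, miR4351 and miR5773 were low in both organs and higher in flower. Their means were 18.8 ± 8.12, 14.8 ± 4.17 and 10.4 ± 4.78 TP5M in flowers (SD, n = 5), against 5.38 ± 7.48, 5.07 ± 5.48 and 3.78 ± 3.61 TP5M in leaves (SD, n = 6). The groups overlapped for each of the 3, with limma adjusted p from 0.0208 to 0.0393. The call of miR4397-5p was lost without florescence or the flower 5 days after flowering (adjusted p up to 0.0609) and that of miR4351 without old leaf at trefoil (0.0511). That of miR5773 was lost without the flower bud, florescence on the other date, the flower 5 days after flowering, old leaf of either stage or new leaf at germination (up to 0.0981).

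Pod against flower called 0 of the 45 members in limma, where the shares over all sequences were 2.02% in all, 0.672% higher and 1.34% lower in pod. 6 members had an unadjusted p under 0.05, and edgeR on recovered reads called 0, with or without TMM factors. Among the 6, miR5762 had 0.84, 0.89 and 0 TP5M in pods against 3.77 to 35.9 TP5M in flowers (limma adjusted p = 0.139). Others of the 6 were miR4416c, miR4412-5p, miR4998 and miR4416b, with adjusted p from 0.224 to 0.307. The 4 contrasts share libraries, so their calls are not independent of each other.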

How the data were processed

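Small RNA was purified from total RNA by gel, amplified by PCR and sequenced, per the labels' protocols. The authors deposited a normalised signal, scaled to 5000000 tags (TP5M), per the file headers. The submitters' processing notes name BWA with no version. No source used here gives the genome build or how reads were assigned. Coordinates are therefore as the table has them. Entries with 1 mature sequence were merged by their maximum, and no member's entries disagreed. The values are scaled and not raw counts, so the main test was limma 3.58.1 (log2(TP5M + 5), 1 mean per organ over 23 libraries, eBayes with trend, Benjamini-Hochberg at 0.05) on 595 sequences, those averaging 5 TP5M or more. Divided by the worth of 1 read, 41139 of 41139 values under the limit of 200 reads came out whole within 0.1 (100.0%). An edgeR 4.0.16 quasi-likelihood test on those reads called 14 of the 45 members for the 4 organs, against 15 in limma. The sets differed, since edgeR ended the calls of miR4351, miR5376, miR5762 and miR5773 and made others. Both tests were tried on simulated data. Intervals are exact binomial at 95% and cover counting error only, since PCR copies cannot be told apart. Named were families detected in all 23 libraries, the 10 highest, the 3 highest per organ, those at 50 TP5M in exactly 1 library, and called sequences. Others are said to be named after their values were seen. Alternatives were another pseudocount, no filter, TMM, edgeR, merging by the mean, other detection levels, and each leaf, flower, pod and seed library left out. A term for 6 libraries and leaving out the root were added after seeing the data. The members, lists and tests were chosen with earlier results of these data known. Results on some members are not reported here.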

Additional observations from a re-analysis of the deposited data

Results flagged for a closer look

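Each value here is a flower or leaf library that stood apart from the others of its organ, by Dixon's criterion at the 95% level. 75 groups of 5 or 6 libraries were examined and 10 flagged, where chance flags about 1 in 20 of independent groups with normally spread values. The values were TP5M without logs, and some groups were a family and its own sequence, so the count cannot be set against that rate. Libraries of an organ differ in stage, and no explanation was tested.

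In leaf, the old leaf at trefoil stood above the other 5 libraries for miR5770 (16909 TP5M, others 188 to 3949), for its copy miR5770a (14778, others 185 to 3689) and for miR4415 (4755, others 92.2 to 707). The senescent leaf was low for miR5767 (1559, others 4437 to 6123) and high for miR5762 (36.0, others 0 to 1.55). High values at flower bud differentiation were those of new leaf for miR4382 (149, others 3.09 to 54.1) and miR5679 (46.5, others 0 to 13.2).

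In flower, the flower bud was high for miR4414 (40.6 TP5M, others 9.20 to 13.3) and miR4998 (36.8, others 20.9 to 24.8). The florescence library was high for miR5043 (12.2, others 2.83 to 3.71).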

How the results depend on the processing

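Of 41 calls of single sequences, 9 held under all 24 alternatives, 216 of 984 pairs of call and alternative lost the threshold and 0 reversed. Members called for flower against leaf were 7, but 4 with TMM scaling, 3 with edgeR and 4 with no filter. For the 4 organs together 15 of the 45 members tested were called, and 27 with no filter. Runs with no filter also tested members averaging under 5 TP5M, so their calls are out of a larger number than 45. The counts of 15 and 27 therefore do not show that a larger share was called with no filter. For pod against flower 0 were called, and 1 each with TMM scaling, no filter and the term for the 6 libraries with extra sequences. For seed against leaf 9 were called and 14 with edgeR. For seed against pod 10 were called, but 6 with edgeR, 5 with edgeR and TMM factors, and 0 with the 6-library term. The median over all sequences was 0.44 for flower against leaf, 0 with TMM scaling and 0.18 with edgeR, and -0.64, -0.155 and -1.05 for seed against pod. Leaving out 1 library gave 5 to 11 calls for flower against leaf, 12 to 19 for the 4 organs, 0 to 2 for pod against flower, 4 to 9 for seed against leaf and 4 to 12 for seed against pod. Families in all 23 libraries were 11, and 24 at 1 TP5M. Families in none were 78, and 20 at 1 TP5M. Families highest in flower were 9, with 17 at 1 TP5M, 14 at 3 reads and 8 to 10 with 1 library left out. The cause of these shifts was not tested beyond the number of sequences tested or libraries kept. The 4 contrasts were not paired, because the labels give no replicate numbers that groups share. Pairing libraries by stage was not tried. Reads limit the low members: 1 read was worth 0.742 to 1.38 TP5M.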
